A study of Homo sapiens with 8 samples.

Results

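The transcripts of 10 non-keratin intermediate filament genes, VIM, NES, INA, NEFL, NEFM, SYNM, LMNA, LMNB1, LMNB2 and GFAP, were followed in cells made to carry a keratin. The genes were chosen by name, and all 10 were found among the 58735 genes of the count table. The libraries were 4 of the EV group, cells transduced with an empty lentiviral vector, and 4 of the KRT19 group, cells transduced with a lentivirus for Flag-tagged KRT19, and both are labelled A549, a widely used line from a human lung adenocarcinoma. Transduced cells had been selected with puromycin, and the number of independent transductions is not given in the sources used here. Nothing in the labels says whether replicates came from separate cultures, so p-values measure the spread between these libraries, which may be technical. Replicate pairs within a group differed by more than counting noise, and KRT19 replicate 3 stood apart. Its chi-square per degree of freedom was 13.6, 7.71 and 8.34 against KRT19 replicates 1, 2 and 4, beside 2.78 to 3.76 among those 3 and 3.13 to 6.49 among EV libraries. Values without it are given where it moved a filament gene, a ratio or a count of genes. For single partner and marker genes, values without it are not given. The promoter of the vector is not given in the sources used here.

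Intermediate filaments are rope-like polymers of coiled-coil proteins that give cells and nuclei their mechanical strength. Vimentin (VIM) and glial fibrillary acidic protein (GFAP) are type III proteins, typical of mesenchymal cells and of astrocytes. The neurofilament light and medium chains (NEFL, NEFM), alpha-internexin (INA), nestin (NES) and synemin (SYNM) are grouped as type IV and are best known from neurons, progenitor cells and muscle. The lamins (LMNA, LMNB1, LMNB2) are type V and line the inside of the nuclear envelope. Lamin B1 loss is a widely used mark of senescent cells, and high vimentin in carcinoma cells is a common mark of a mesenchymal state. Keratin 19 pairs with type II keratins and not with these proteins.

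The sequence before the transcription start is shown for the member with the highest level of each type (VIM, INA, LMNA) and for NES, the member with the lowest level among those with a window, because the levels of these genes lay far apart. RefSeq windows (GRCh38.p14) were matched by symbol for 7 of the 10 members, and where a gene had several windows the one closest to its start in the count table was taken. Each run holds the 250 bases before the start, 5′ to 3′ on the strand of the gene. Capitals mark the GC box, spelled GGGCGG. They also mark the CCAAT box, whose letters are its name, and the TATA box, spelled TATAAA. Each was searched on both strands, and overlaps between motifs were allowed.
VIM, chr10:17227991-17228240, plus strand: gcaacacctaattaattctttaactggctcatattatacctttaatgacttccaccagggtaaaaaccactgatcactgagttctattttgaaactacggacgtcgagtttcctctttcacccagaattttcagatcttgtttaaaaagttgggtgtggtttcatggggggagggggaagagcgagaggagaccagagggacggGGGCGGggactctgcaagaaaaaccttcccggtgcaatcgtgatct
INA, chr10:103276888-103277137, plus strand: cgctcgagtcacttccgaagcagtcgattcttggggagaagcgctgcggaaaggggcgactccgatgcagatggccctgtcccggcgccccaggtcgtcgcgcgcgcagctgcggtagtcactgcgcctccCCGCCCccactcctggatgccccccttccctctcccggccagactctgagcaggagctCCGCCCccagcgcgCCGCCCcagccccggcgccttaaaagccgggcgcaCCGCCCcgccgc
LMNA, chr1:156082323-156082572, plus strand: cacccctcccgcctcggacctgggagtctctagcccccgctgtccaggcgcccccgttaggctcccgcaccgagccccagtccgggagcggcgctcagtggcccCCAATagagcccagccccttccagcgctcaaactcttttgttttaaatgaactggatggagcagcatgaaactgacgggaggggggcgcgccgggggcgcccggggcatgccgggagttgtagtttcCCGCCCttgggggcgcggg
NES, chr1:156677408-156677657, minus strand: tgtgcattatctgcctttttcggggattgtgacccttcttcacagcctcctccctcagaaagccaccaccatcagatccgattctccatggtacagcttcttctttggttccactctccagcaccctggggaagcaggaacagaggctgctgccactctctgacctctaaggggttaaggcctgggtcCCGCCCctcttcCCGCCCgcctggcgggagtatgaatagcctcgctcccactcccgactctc
The 4 windows held 1 GC box in VIM, 4 in INA, 1 in LMNA and 2 in NES. LMNA also held 1 CCAAT box. A TATA box of these letters was in none of the 7 windows. Of all 35116 RefSeq windows of this length, 42.6% held a GC box, 32.0% a CCAAT box and 10.7% a TATA box. The share of G and C was 46.0% for VIM, 72.8% for INA, 68.8% for LMNA and 58.0% for NES, beside a median of 58.0% over all windows. The VIM and NES windows held 8 CG pairs each. VIM was the highest and NES the lowest of the 4 transcripts. A relation between the bases of a window and the level of its gene was not tested.

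Total counts per library lay between 14073065 and 17054364. The floor, the level that a count of 0 still allows, was 3 counts or 0.176 to 0.213 CPM (counts scaled to a common library size) and covers counting error only, since no molecular identifiers are described and reads are then not independent molecules. The introduced gene separated the groups, with 1 to 5 KRT19 counts in EV and 4353 to 5147 in KRT19 libraries. The labelled cell type did not match in all markers. Of 15 genes known to be expressed in A549, 4 had no more than 3 counts in any library, the epithelial genes EPCAM and CDH1 among them. CDKN2A and MTAP, known as deleted in A549, were present at 103.7 ± 6.42 and 46.2 ± 3.58 CPM in EV libraries. Here and below ± after a level is the SD over the 4 libraries of a group, and ± after a fold change is the SE of the edgeR fit. The libraries are therefore described as cells labelled A549. The label on extraction speaks of retinas, although each sample is labelled with a cell line.

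To see which filament transcripts these cells carried, levels were compared per kilobase of merged exon length, as TMM-scaled CPM per kilobase. Vimentin was the highest member in every library and ranked at place 60 of the 14621 expressed genes. It was followed by LMNA at place 138, LMNB2 at 320, INA at 451, LMNB1 at 647 and SYNM at 5333. Expressed members at the low end were NEFL at place 13462 and NES at 13623. NEFM and GFAP did not pass the filter on low counts, so 8 of the 10 members were tested.

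The order of the first 6 members was the same in all 8 libraries. VIM lay between 443.0 and 494.1 CPM per kilobase, and LMNA between 215.4 and 248.0. LMNB2 followed with 111.9 to 120.3, INA with 86.6 to 91.2, LMNB1 with 61.3 to 75.1 and SYNM with 6.98 to 8.60 CPM per kilobase. The ranges of these neighbours did not overlap. NEFL and NES could not be ordered, because their ranges of 0.197 to 0.460 and 0.239 to 0.402 CPM per kilobase overlapped and NEFL was the higher of the pair in 4 of 8 libraries. Per kilobase NEFM was above GFAP in 8 of 8 libraries, but their ranges overlapped, many of their counts were at or under the floor, and the exon length used for GFAP is the longer one. By this measure VIM made up 48.7% ± 0.891 of the summed level of the 10 members in EV libraries and 46.9% ± 0.454 of it with KRT19. LMNA made up 23.5% ± 1.07 and 23.8% ± 0.986.

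**Figure D1:**
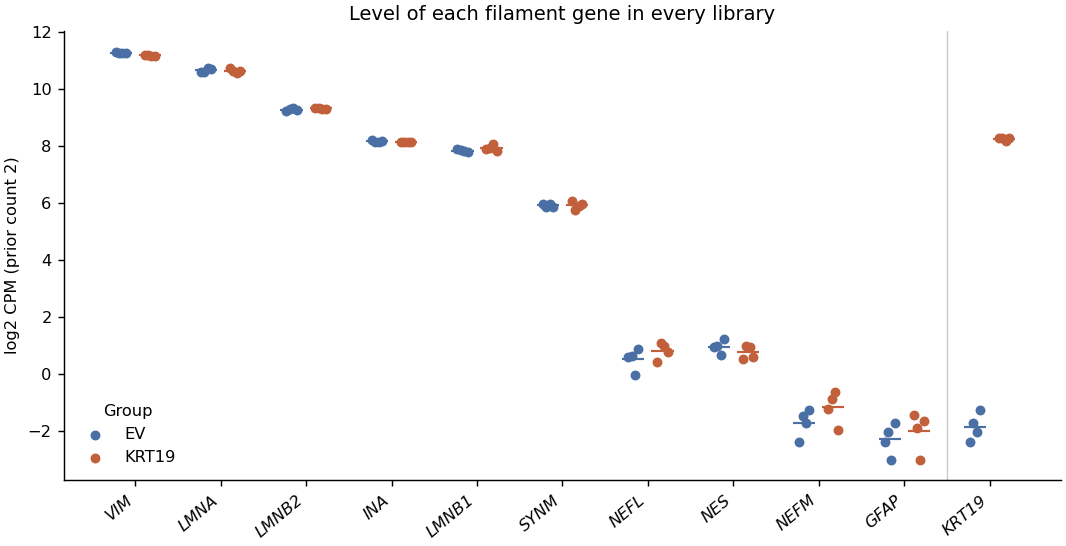
Level of the 10 filament genes and of KRT19 in each of the 8 libraries, as log2 CPM with a prior count of 2 (vertical axis); points are libraries, short lines group means. Genes are ordered by CPM per kilobase. VIM, the lamins and INA lie above 7 in both groups, NEFM and GFAP below 0, and KRT19 separates the groups.

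The introduced keratin was set beside the resident filaments on the same scale. KRT19 reached 123.4 to 133.0 CPM per kilobase in KRT19 libraries, which was 27.9% to 29.7% of the VIM level in the same library and 139.6% to 152.9% of the INA level. In EV libraries it was at most 0.126 CPM per kilobase. These values use the exon length of the KRT19 gene, and the length of the vector transcript is not given in the sources used here.

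Whether the filament genes differed with KRT19 was asked in a fit over all 14621 expressed genes. None of the 8 tested members passed the adjusted threshold, beside 0.00684% of all genes (1 gene, KRT19 itself). Their adjusted p lay between 0.906 and 0.993 (edgeR, Benjamini-Hochberg over all genes). VIM was the 1 member that had an unadjusted p under 0.05, where 5.41% of all genes reached that level 2.56% by a lower and 2.85% by a higher value in KRT19 libraries. The members split evenly, with 4 fold changes above 0 and 4 below, while 52.2% of all genes lay above 0. Their median log2 fold change was -0.0050 and the median of all genes was 0.0051. The median absolute value was 0.068 for the members and also 0.068 for all genes.

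Vimentin was the member with the lowest p. VIM (ENSG00000026025, plus strand of chromosome 10, 17228259 to 17237593, GRCh38) stood at 2548, 2467, 2449 and 2475 CPM in EV replicates 1 to 4. In KRT19 replicates 1 to 4 it stood at 2356, 2369, 2285 and 2307 CPM. Every KRT19 library was below every EV library, a separation that 3.44% of all tested genes showed in either direction. The means were 2485 ± 43.8 and 2329 ± 39.8 CPM, and no exact permutation of 4 against 4 libraries can give a two-sided p below the 0.0286 found here. Vimentin had a log2 fold change of -0.093 ± 0.041, or -6.26% with a 95% interval from -11.7% to -0.518%. Its unadjusted p was 0.0348, its adjusted p 0.906 and its place by p 542 of 14621 (edgeR). The unadjusted p was not under 0.05 in 6 of 18 alternative fits and reached up to 0.114, while the fold change was below 0 in all 18. In bulk libraries a lower level per cell and fewer cells that carry the transcript cannot be told apart. Of 8 fibroblast markers 2 were tested, COL1A1 with 21 to 54 and ACTA2 with 13 to 33 counts, while COL1A2, LUM and THY1 had no more than 3 counts in any library, and the summed level of the list was 3.26 to 5.06 CPM in EV and 2.85 to 5.31 CPM in KRT19 cells.

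VIM reads could include reads of an antisense gene, because the handling of strand is not given. AL133415.1 shares 619 bases of exon with VIM on the opposite strand and had 0 counts in every library. VIM-AS1 shares 641 bases of exon with VIM on the opposite strand. It had 48 to 92 counts per library beside 33316 to 42072 of VIM, and a log2 fold change of -0.041 ± 0.16 (adjusted p = 0.978, edgeR).

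GFAP, the other type III member, was hardly present. It had 1, 2, 0 and 3 counts in EV replicates 1 to 4 and 4, 2, 0 and 3 counts in KRT19 replicates 1 to 4. The highest count was 1 above the floor, and with a looser filter, which admits GFAP, p was 0.511, or 0.886 after adjustment (edgeR). Of 6 astroglial markers, 5 had no more than 3 counts in any library, and the summed level of the list was 1.08 to 1.94 CPM in EV and 1.69 to 2.06 CPM in KRT19 cells.

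**Figure D2:**
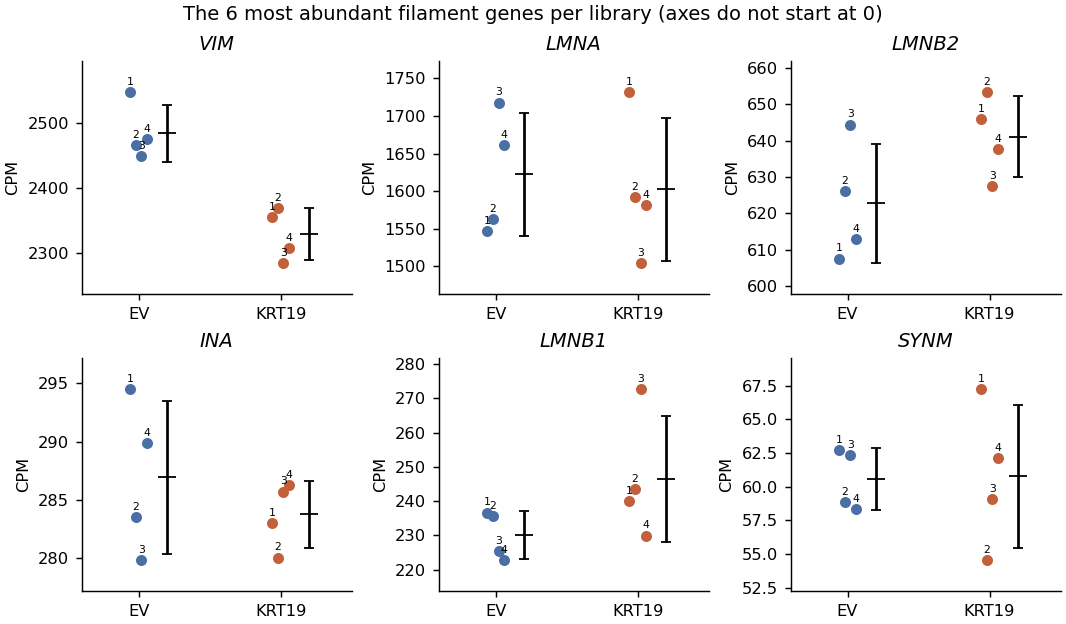
CPM of the 6 most abundant filament genes in each library (vertical axes, which do not start at 0), by group; numbers beside points are replicate numbers, and the bars show the mean and SD (n = 4). VIM is the 1 gene of the 6 whose groups do not overlap, and LMNB1 is highest in KRT19 replicate 3.

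Among the type IV genes, INA carried most of the reads. Alpha-internexin, a neuronal filament protein that can assemble by itself or with neurofilaments, was at 294.5, 283.5, 279.8 and 289.9 CPM in EV replicates 1 to 4. In KRT19 replicates 1 to 4 it was at 283.0, 280.0, 285.7 and 286.2 CPM. All KRT19 values lay inside the EV range. The log2 fold change was -0.016 ± 0.043 with a 95% interval from -0.11 to 0.075 (adjusted p = 0.973, edgeR), and its coefficient of variation over the 8 libraries was 1.74%, beside a median of 8.63% over all tested genes.

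The neurofilament chains themselves were low. NEFL had 21, 24, 14 and 29 counts in EV and 20, 28, 32 and 24 counts in KRT19 replicates 1 to 4. The groups overlapped, and the log2 fold change of 0.29 ± 0.25 had an interval from -0.24 to 0.83. It was 0.13 without EV replicate 3 and 0.43 without EV replicate 4. NEFM had 1, 4, 3 and 5 counts in EV and 5, 6, 9 and 2 in KRT19 replicates 1 to 4. With the looser filter, which admits NEFM, its unadjusted p was 0.196 (edgeR). Per kilobase, INA stood at 88.8 CPM in EV libraries, and NEFL, with which it co-assembles in neurons, at 0.312. NEFH, the heavy chain, had 0 to 20 counts and a log2 fold change of -0.64 ± 0.53.

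Of 8 neuronal markers 4 were tested, and none passed the adjusted threshold. Their 4 fold changes were below 0, where 52.2% of all genes lay above 0, and the groups of each single marker overlapped. The whole list summed to 61.1 to 69.8 CPM in EV against 53.1 to 58.0 CPM in KRT19 cells. These sums were not tested. MAP2, a microtubule protein of dendrites, had a log2 fold change of -0.30 ± 0.093 (unadjusted p = 0.00439, adjusted p = 0.868, edgeR). The others tested were SNAP25 with 231 to 306 counts, SYT1 with 134 to 229 and TUBB3 with 66 to 135, while RBFOX3, STMN2 and ELAVL4, which define neurons, had no more than 3 counts in any library. The part of these genes in the values of INA and NEFL was not tested.

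NES and SYNM completed the type IV group. Nestin, known from neural progenitors and from dividing endothelial and tumour cells, had 27, 31, 24 and 38 counts in EV and 22, 26, 31 and 21 in KRT19 replicates 1 to 4, and the groups overlapped. Its log2 fold change was -0.21 ± 0.22, with an interval from -0.67 to 0.25. It was -0.099 without EV replicate 4 and -0.31 without EV replicate 3. Synemin, which links filaments to the attachment sites of muscle cells and also binds vimentin, was at 62.7, 58.9, 62.4 and 58.3 CPM in EV replicates 1 to 4 and at 67.2, 54.5, 59.1 and 62.1 CPM in KRT19 replicates 1 to 4. Its log2 fold change was 0.0059 ± 0.065, and the KRT19 range enclosed the EV range. The summed level of the 5 type IV genes was 350.9 ± 7.24 CPM without and 348.1 ± 6.40 CPM with KRT19.

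**Figure D3:**
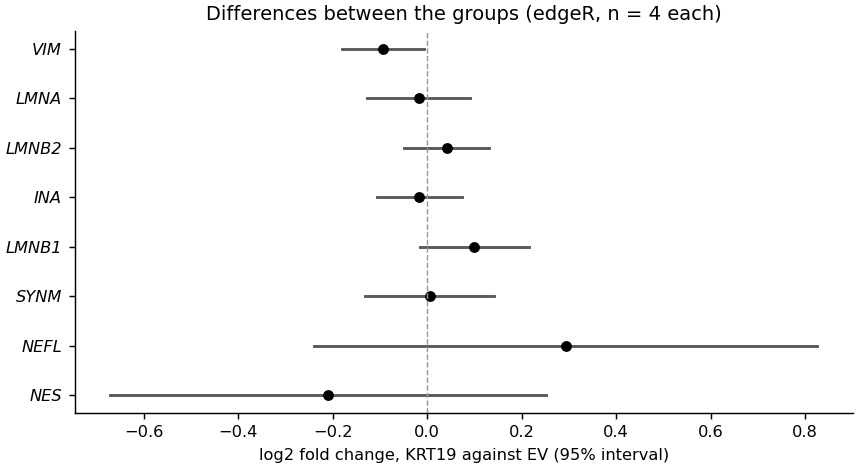
Log2 fold change of KRT19 against EV (horizontal axis) for the 8 tested filament genes, with 95% intervals (edgeR, n = 4 libraries per group). The interval of VIM lies just below 0 and the other 7 include 0; those of NEFL and NES, with 14 to 38 counts per library, are the widest.

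The lamins were then compared. LMNA, which gives lamin A and lamin C by splicing (chromosome 1, 156082573 to 156140089), was at 1547, 1563, 1718 and 1661 CPM in EV replicates 1 to 4 and at 1732, 1592, 1504 and 1581 CPM in KRT19 replicates 1 to 4. The KRT19 range enclosed the EV range, and the log2 fold change was -0.018 ± 0.051 with an interval from -0.13 to 0.091. Counts per gene do not separate lamin A from lamin C.

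LMNB1 (chromosome 5, 126776623 to 126837020) was at 236.7, 235.5, 225.4 and 222.8 CPM in EV and at 240.1, 243.6, 272.8 and 229.9 CPM in KRT19 replicates 1 to 4. KRT19 replicate 3 was the highest library and KRT19 replicate 4 lay within the EV range. The log2 fold change was 0.10 ± 0.054, with an interval from -0.014 to 0.22 and an unadjusted p of 0.0828 (edgeR). It was 0.048 without KRT19 replicate 3. The exact permutation p was 0.114.

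LMNB2 (chromosome 19, 2427638 to 2456996) was at 607.6, 626.1, 644.4 and 612.9 CPM in EV and at 645.9, 653.4, 627.5 and 637.7 CPM in KRT19 replicates 1 to 4. The groups overlapped through EV replicate 3, and the fold change was 0.042 ± 0.042 on the log2 scale with an interval from -0.048 to 0.13. LMNB2 shares 257 bases of exon with TIMM13 on the same strand, and 3.34% of its 75-base words occur in that gene, so part of its reads is uncertain. For TIMM13, a mitochondrial import protein, the log2 fold change was 0.023 ± 0.073. For LMNA, LMNB1, INA and NES no 75-base word occurred in another gene. On the opposite strand, NEFM shares 1706 bases of exon with AF106564.1 and SYNM 2027 with AC036108.2. GFAP shares 2230 with CCDC103 and FAM187A, and NEFL 490 with AC107373.2. These overlapping genes had at most 2 counts in any library. Because the handling of strand is not given, the levels of NEFM, SYNM, GFAP and NEFL carry this limit. The 3 lamins summed to 2475 ± 87.1 CPM without and 2490 ± 91.9 CPM with KRT19.

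Ratios within a library do not depend on its size, and 3 were compared by exact permutation of the libraries (two-sided), with p adjusted over the 3. LMNA exceeded the summed B-type lamins per kilobase by 1.25, 1.24, 1.36 and 1.37 times in EV and by 1.34, 1.22, 1.13 and 1.25 times in KRT19 replicates 1 to 4. The groups overlapped (log2 difference -0.081, exact p = 0.200, adjusted 0.300). This difference was -0.039 without KRT19 replicate 3 and -0.12 without KRT19 replicate 1. LMNB1 stood at 0.523 to 0.582 of LMNB2 in EV and at 0.539 to 0.650 in KRT19 libraries, and the highest value was that of KRT19 replicate 3 (log2 difference 0.055, exact p = 0.571, adjusted 0.571). Without that library the difference was -0.0043.

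VIM exceeded the sum of the other cytoplasmic members by 4.89 to 4.99 times in EV and by 4.57 to 4.86 times in KRT19 libraries. On the log2 scale this ratio averaged 2.31 ± 0.013 without and 2.23 ± 0.040 with KRT19, a difference of -0.080. The groups did not overlap, and the exact permutation gave its lowest possible p, 0.0286, which was 0.0857 after adjustment over the 3 ratios. The ratio holds the same VIM values as the comparison above and is not separate evidence for them.

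**Figure D4:**
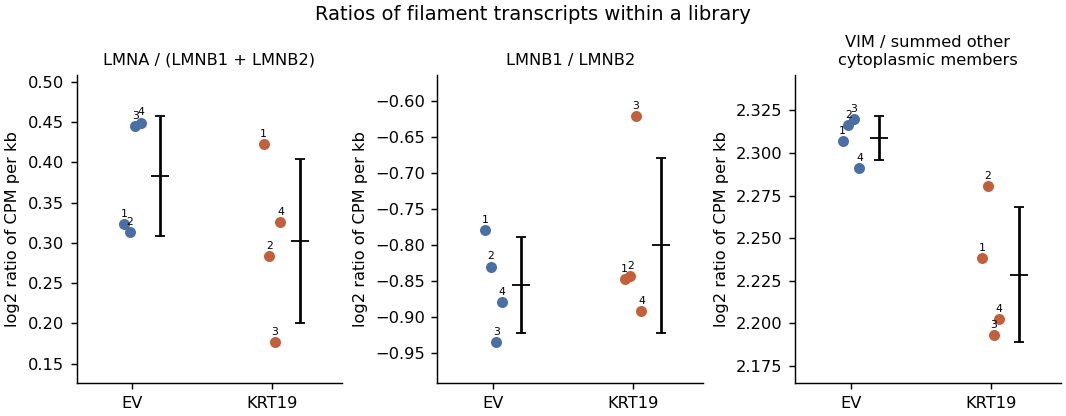
Log2 ratios of CPM per kilobase within each library (vertical axes): LMNA to LMNB1 plus LMNB2, LMNB1 to LMNB2, and VIM to the summed other cytoplasmic members. Numbers beside points are replicate numbers and bars show mean and SD (n = 4); the groups separate in the VIM ratio and overlap in both lamin ratios.

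The genes that work with these filaments were examined as lists. None of their tested members passed the adjusted threshold over all genes. Of the other non-keratin filament genes, 4 of 6 were tested, 2 above and 2 below 0, and none had an unadjusted p under 0.05. BFSP1, a filament protein of the eye lens, averaged 18.7 ± 2.00 CPM without and 20.2 ± 1.51 CPM with KRT19 (log2 fold change 0.11 ± 0.089). PRPH, which encodes the type III protein peripherin of peripheral nerves, had 2 to 13 counts and a log2 fold change of 0.36 ± 0.42, and DES, the filament of muscle, had at most 5.

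Partners of the nuclear lamina were nearly all expressed. Of 17 genes 16 were tested, 9 above and 7 below 0, with a median log2 fold change of 0.016. At an unadjusted p under 0.05 there was 1 of the 16, near the 5.41% of all genes. It was SUN1, which spans the inner nuclear membrane and ties lamin A to the cytoskeleton. EV libraries averaged 338.7 ± 6.55 CPM and KRT19 libraries 311.9 ± 10.0 CPM, and the groups did not overlap, as for 3.44% of all genes. Its log2 fold change was -0.12 ± 0.044 (unadjusted p = 0.0157, adjusted p = 0.906, edgeR). The next genes by p were TMPO, which encodes lamina-associated polypeptide 2 (0.10 ± 0.066), and NARF, a prelamin A binding protein (-0.087 ± 0.062, both log2 fold changes).

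All 5 genes for the farnesylation and cleavage of lamins were tested and none reached an unadjusted p under 0.05. The lowest p was that of FNTA, a subunit of farnesyltransferase (log2 fold change 0.055 ± 0.069), followed by ZMPSTE24, the protease that cuts prelamin A (0.047 ± 0.088), and RCE1 (0.032 ± 0.085).

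Of 7 proteins that crosslink filaments, 5 were tested, 3 above and 2 below 0. PLEC, which encodes plectin and joins vimentin to actin and to the nuclear envelope, averaged 931.8 ± 85.7 CPM without and 936.3 ± 52.8 CPM with KRT19. DSP, desmoplakin of desmosomes, was the 1 of 5 at an unadjusted p under 0.05 (5.41% of all genes), with 54.0 ± 2.06 and 48.8 ± 4.57 CPM. Its log2 fold change was -0.15 ± 0.067 (unadjusted p = 0.0401, adjusted p = 0.906, edgeR) and its groups overlapped. MACF1 (0.011 ± 0.051) and DST (-0.0073 ± 0.057) were next by p, both as log2 fold changes.

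Kinases that phosphorylate vimentin or lamins, mostly at cell division, were all tested. Of the 12, 6 lay above and 6 below 0, and none reached an unadjusted p under 0.05. ROCK2, which acts on vimentin at the cleavage furrow, stood at a log2 fold change of 0.13 ± 0.086, CDK1, which opens the lamina at mitosis, at 0.13 ± 0.083, and AURKB at 0.085 ± 0.060. In the plot of these lists the medians lie between -0.058 and 0.032.

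**Figure D5:**
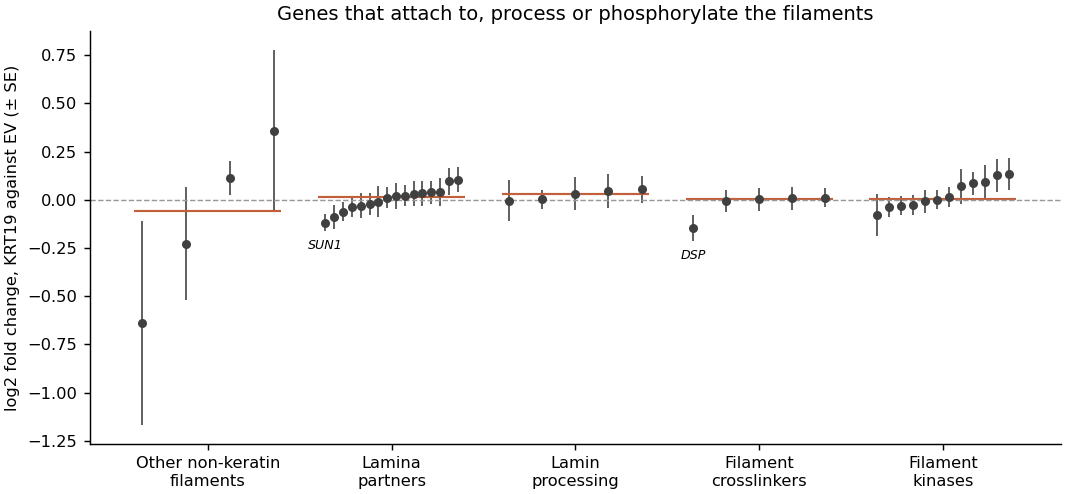
Log2 fold change of KRT19 against EV (vertical axis, ± SE) for the tested genes of the 5 lists of filament partners; points are genes, horizontal lines list medians. SUN1 and DSP, the 2 genes with an unadjusted p under 0.05, are named; the widest errors belong to low-count genes such as NEFH.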

How the data were processed

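RNA-seq was measured in 8 libraries, 4 per group. Raw, unnormalized counts of reads per gene were deposited by the authors as 1 table, after companies had sequenced the RNA and cleaned the data. The submitters' processing notes name Bowtie 0.12.2, featureCounts 1.5.0-p3, DESeq2 and hg38, with no role or order. Strand and multi-mapping settings are not given in the sources used here. Start, end and gene length equalled those of GENCODE 29 for 58724 of 58735 genes, the length being that of merged exons.

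Groups and replicate numbers came from the sample titles. The test was that of edgeR 4.0.16 under R 4.3.3 (filterByExpr at a minimum count of 10, TMM, glmQLFit and glmQLFTest, group term, two-sided). P-values were adjusted by Benjamini-Hochberg over the 14621 genes tested, at a threshold of 0.05. The SE of a fold change was taken from its size and the F statistic. Exact permutation tests of single genes used log2 CPM with a prior count of 2. Those of ratios used log2 ratios of CPM per kilobase without a prior count. Filament genes were taken by gene name. Genes of the 5 partner lists were named by the lowest p, up to 3 a list, and cell type markers by their levels, which were known when they were picked. PLEC, DES and the neighbours VIM-AS1 and TIMM13 were added after their values were seen. One list of retina markers is not reported here as a whole. Members and lists were chosen with earlier results of these data known. The procedure was also run on simulated counts, and the outcome is not reported here. Alternatives were other normalizations, DESeq2 1.42.0, limma 3.58.1 (voom), other filters, a replicate block, fits without GC and length trends, and leaving out each library.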

Additional observations from a re-analysis of the deposited data

Results flagged for a closer look

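In 24 groups of 4 libraries (KRT19, the 8 tested filament genes and the 3 ratios, in each group), 1 library was singled out because the distance to its nearest neighbour, divided by the whole range of the group, exceeded Dixon's 95% critical value; chance flags about 1 in 20 such groups. Its gene was the introduced keratin: KRT19 replicate 3 held the least, 8.17 on the log2 CPM scale, where the remaining 3 KRT19 libraries held 8.27 to 8.28 (distance 0.949 of the range). No filament gene was singled out. The same library was the highest of its group for LMNB1 and the lowest for VIM, LMNA and LMNB2.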

How the results depend on the processing

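No filament gene and no gene of the 5 partner lists passed the adjusted threshold under any of the 18 alternatives, and KRT19 passed under all 18 (log2 fold change 10.52 to 11.17). The number of genes past that threshold, 1, became 71 under the looser filter, 8 in limma-voom, 5 by the DESeq2 test, 5 with GC and length trends removed, 8 with these removed and the replicate block, and 1 to 5 when each library was left out (3 without EV replicate 1, 5 without KRT19 replicate 3). The cause was not tested. VIM stayed lower throughout, from -0.11 to -0.081, with an adjusted p of 0.446 to 1.000. Its unadjusted p was 0.0512 with the looser filter, 0.0880 without EV replicate 1, 0.0604 without EV replicate 4 and 0.0789 without KRT19 replicate 4. LMNB1 stayed higher, from 0.048 to 0.13, and had an unadjusted p under 0.05 in 3 alternatives (0.0245 with GC and length trends removed).

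Values near 0 reversed. SYNM was -0.0058 with upper-quartile normalization and -0.047 to 0.053 in the fits on 7 libraries, with reversals without EV replicates 2 and 4 and KRT19 replicates 1 and 4. INA was 0.0054 with GC and length trends removed and 0.0057 with these removed and the replicate block. With each library left out, LMNA was -0.057 to 0.012, above 0 without EV replicate 3 or KRT19 replicate 3. The LMNB1 to LMNB2 log2 difference ranged from -0.0043, without KRT19 replicate 3, to 0.086. NES was -0.35 in limma-voom. The cause was not tested.

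The labels name no pairing, and the main fit did not pair libraries by number. Deviations of those with 1 number in common correlated at -0.111, -0.0239, -0.159 and 0.0567. EV replicate 4 and KRT19 replicate 4, at 0.0567, were each other's best partner. With so few libraries these values cannot show that no pairing existed. With the replicate block 1 gene passed the adjusted threshold, and VIM had an unadjusted p of 0.114 (0.0713 with GC and length trends also removed). Of the genes at an unadjusted p under 0.05, 52.7% were higher, and 40.5% with upper-quartile scaling. Depth limits NEFL, NES, NEFM and GFAP, with at most 38 counts in a library.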
